A study of Mus musculus with 9 samples.

Results

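The sterol and fatty acid synthesis genes described here are 34 genes taken by name from a list of the pathway. All 34 were found among the 26214 genes of the normalized table. They were described as a sterol branch of 24 genes, with 18 enzymes and 6 genes of SREBP regulation and sterol transport, and a fatty acid branch of 10 genes. RNA was sequenced from cells of male C57Bl/6J mice aged 8 to 12 weeks, collected on day 1 after an injection into the quadriceps. The groups were adipose stromal cells (ASCs) of subcutaneous adipose tissue after NaCl (3 libraries), fibro-adipogenic progenitors (FAPs) of the quadriceps after NaCl (2 libraries), and FAPs after glycerol, which damages the muscle fibres (injured FAPs, 3 libraries). A further library of CD31+CD45+ cells came from quadriceps given glycerol. It was unreplicated and is described by its values alone. ASCs and FAPs had been depleted of CD45 and CD31 positive cells on magnetic beads and then selected for Sca-1. The replicates of ASCs and FAPs came from pooled cells of 3 animals. Whether each had its own pool is not given in the sources used here, so the p-values measure only the spread between libraries, which may be technical.

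Cholesterol is built from acetyl-CoA through mevalonate, isoprenoid diphosphates, squalene and lanosterol. Fatty acids are built from the same acetyl-CoA through malonyl-CoA, then elongated and desaturated. Both branches are known targets of the sterol regulatory element binding proteins (SREBPs), made by Srebf1 and Srebf2. These factors sit in the membrane of the endoplasmic reticulum, are carried to the Golgi by Scap when sterols are low, and are held back by the Insig proteins when sterols are high. Progenitors of muscle and adipose tissue can form adipocytes, in which the fatty acid branch feeds lipid storage.

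The libraries held 24052508 to 27481573 reads on genes in ASCs, FAPs and injured FAPs, and 13091077 in the CD31+CD45+ library. Values are the normalized values of the table, which are reads divided by a size factor, and 3 reads were worth between 2.29 and 4.71 depending on the library. Differences were tested with limma on log2(value + 1) in the 8 libraries of the 3 replicated groups, for 13601 genes whose mean reached 10. A call required a Benjamini-Hochberg adjusted p below 0.05 together with a rise or fall of more than 0.58 on the log2 scale. Fold changes are on the log2(value + 1) scale, which understates the change of genes with low values. All 34 genes passed the filter, Idi1 only through its level in injured FAPs.

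Defining markers were read in each library before the comparisons. Pdgfra, a marker of stromal progenitors, stood at 10837, 15083 and 13043 in ASCs, 17754 and 17756 in FAPs and 23649, 25268 and 23236 in injured FAPs, against 119 in the CD31+CD45+ library. Most of the 11 stromal identity genes moved the other way. Col3a1, Cd34, Dpp4, Dcn, Lum, Col1a1 and Pi16 were called lower and only Ly6a higher in injured FAPs against FAPs, and 9 were lower and only Pdgfra higher against ASCs. The CD31+CD45+ library held Pecam1, the gene of CD31, at 45323 and Ptprc, the gene of CD45, at 797. The 14 endothelial genes summed to 474650 there, with Cdh5 the most abundant, to 18665 and 16711 in FAPs, and to 9289 to 12113 in ASCs and injured FAPs. Tek was the most abundant of these genes in ASCs, and Eng in FAPs and injured FAPs. Of 13 tested endothelial genes 9 were called lower and 3 higher in ASCs than in FAPs, and 7 lower and 2 higher in injured FAPs than in FAPs. In injured FAPs against ASCs 9 were called higher, Flt1 and Cdh5 among them, and only Tek lower. The shares of all genes called, to be read beside these counts, are given with each comparison below. Kdr was lower in ASCs and in injured FAPs than in FAPs. It was at 231, 116 and 65.3 in ASCs, 1054.5 and 684 in FAPs and 103, 98.4 and 80.8 in injured FAPs. The CD31+CD45+ library also had the highest sums of the leukocyte (21773), mural (84322) and adipocyte (69756) genes, the last with Fabp4 most abundant. Emcn, Vwf and Cldn5 were at 0 in both FAP libraries, and Pecam1 was at 195 in FAP 1 and at 0 in FAP 2. The 15 leukocyte genes summed to 631, 557 and 562 in ASCs, 292 and 546 in FAPs, and 783, 3347 and 697 in injured FAPs. In FAPs 11 of these 15 genes, Ptprc and Lyz2 among them, were at 0 in both libraries. Whether these zeros, and those of the endothelial genes, come from the cells or from the making of the table cannot be told apart. Injured FAP 2 stood apart from its replicates, with Lyz2 at 725 as its most abundant leukocyte gene, and the part of such cells in the results was not tested.

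The 12 adipocyte genes summed to 31924, 24856 and 35815 in ASCs, 19879 and 16896 in FAPs and 5152, 4994 and 4790 in injured FAPs, with Lpl the most abundant gene in each. Adipoq, specific to mature adipocytes, was at 44.8, 44.2 and 37.7 in ASCs, 0.951 and 8.47 in FAPs and 1.57, 0.775 and 0 in injured FAPs. Of 8 tested adipocyte genes 4 were called higher and 2, Lipe and Pnpla2, lower in ASCs than in FAPs (all genes 23.4% and 23.8%). In injured FAPs 0 were higher and 6 lower than in FAPs (all genes 24.9% and 27.7%). Against ASCs 0 were higher and 7 lower in injured FAPs (all genes 25.0% and 25.8%). The 8 genes of smooth muscle and pericytes summed to 5657, 3729 and 4665 in ASCs, 24230 and 21306 in FAPs and 10526, 10200 and 10664 in injured FAPs. The 10 genes of skeletal muscle fibres summed to at most 159 in ASCs, 1083 in FAPs and 343 in injured FAPs. The 6 satellite cell genes summed to at most 2801 in ASCs, 1122 in FAPs and 4468 in injured FAPs, mostly Vcam1, whereas Pax7, specific to satellite cells, was at 0 in ASCs, 31.4 and 65.9 in FAPs and 11.8, 10.8 and 5.34 in injured FAPs. The 6 Schwann cell genes, mostly Pmp22, summed to 15706, 12947 and 14464 in ASCs, 16192 and 17027 in FAPs and 7178, 6149 and 6456 in injured FAPs. The 11 immediate early and heat shock genes, which can rise while tissue is dissociated, summed to 605610, 722720 and 798480 in ASCs, 596130 and 537900 in FAPs and 206230, 201290 and 183630 in injured FAPs.

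Levels of genes of most of these lists, leukocyte, endothelial and stromal identity genes included, therefore differed between the groups together with the synthesis genes, and their part in the differences was not tested. A change in the share of a cell type and a change of RNA per cell cannot be told apart in these bulk samples.

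Injury was compared with NaCl within FAPs. Of the sterol branch, 18 of 24 genes were higher in injured FAPs and 0 were lower, where 24.9% of all 13601 genes were called higher and 27.7% lower. Without Idi1, which passed the filter through injured FAPs alone, 17 of 23 genes were higher, with a median log2 fold change of 1.46, beside −0.05 over all genes. Of the 17 enzymes other than Idi1, 15 rose, with a median of 2.25, and 2 of the 6 genes of regulation and transport rose. Of the fatty acid branch 7 of 10 genes rose and 1 fell, with a median of 1.09. In ASCs against FAPs 7 sterol branch genes were higher and 1 was lower, and 4 fatty acid branch genes were higher and 0 were lower, beside 23.4% of all genes called higher and 23.8% lower. Injured FAPs compared directly with ASCs had 16 sterol branch genes (15 without Idi1) and 5 fatty acid branch genes higher and none lower by limma, beside 25.0% of all genes called higher and 25.8% lower. None of the genes was called lower there at an unadjusted p under 0.05, by edgeR or by DESeq2 either. The comparisons share libraries, so their counts are not independent of each other.

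These counts depended on the scaling where ASCs were involved. With each library scaled to the same total of reads, an alternative chosen after seeing the data, the median of all genes moved by −0.56 in ASCs against FAPs, by 0.69 in injured FAPs against ASCs and by 0.13 in injured FAPs against FAPs. The 3183 higher and 3233 lower genes of ASCs against FAPs became 1594 and 6316, and the 3405 and 3504 of injured FAPs against ASCs became 7377 and 1692. In ASCs against FAPs the sterol branch then had 5 genes higher and 8 lower, and the fatty acid branch 2 higher and 5 lower. Those gained as lower with equal totals were Lss, Mvd, Mvk, Nsdhl, Scap, Srebf1, Tm7sf2, Elovl5, Fads1, Fads2, Scd1 and Scd2. With quantile normalization the median of the fatty acid branch was −0.08 instead of 0.25 between ASCs and FAPs, and 0.97 instead of 0.57 between injured FAPs and ASCs. With equal totals 20 sterol branch and 7 fatty acid branch genes were higher and 0 were lower in injured FAPs against FAPs. Of all 13601 genes 3964 were then higher and 3250 lower in that comparison. In injured FAPs against ASCs 21 sterol branch and 8 fatty acid branch genes were higher.

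**Figure D1:**
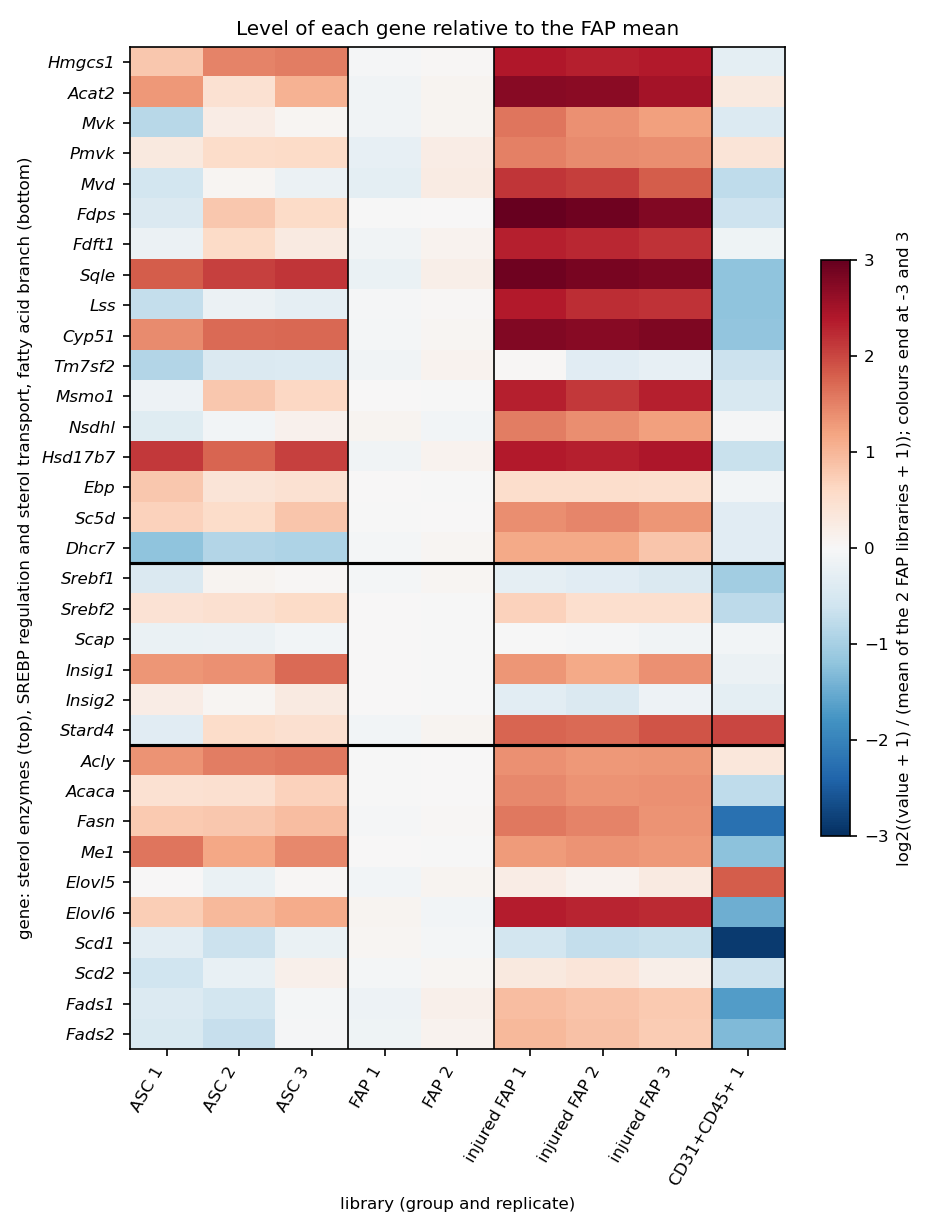
Log2 ratio of each gene's value in each of the 9 libraries (columns) to the mean of the 2 FAP libraries, with 1 added to both, by gene (rows) and list. Idi1 is left out because its FAP values rest on 3 and 2 reads. Fdps, Sqle, Cyp51 and Acat2 are the deepest red in the 3 injured FAP libraries, Tm7sf2 is pale there, and in the CD31+CD45+ library Stard4 and Elovl5 are red among mostly blue cells.

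Promoters are shown because most sterol enzymes rose in injured FAPs. RefSeq sequences (GRCm38.p6) of 250 bases before to 50 after the annotated start matched 27 of the 34 genes, with 36 starts. The 4 motifs searched on both strands are known from SREBP targets: TCACNCCAC, a form of the sterol regulatory element, CCAAT, read by NF-Y, GGGCGG, read by Sp1, and CACGTG, an E-box. Capitals mark any of them. Hmgcs1, Cyp51 and Hsd17b7 stand for sterol enzymes that rose, Tm7sf2 for one that was not called, Insig1 for the regulators and Fasn for the fatty acid branch.
Hmgcs1, chr13:119690101-119690400, plus strand: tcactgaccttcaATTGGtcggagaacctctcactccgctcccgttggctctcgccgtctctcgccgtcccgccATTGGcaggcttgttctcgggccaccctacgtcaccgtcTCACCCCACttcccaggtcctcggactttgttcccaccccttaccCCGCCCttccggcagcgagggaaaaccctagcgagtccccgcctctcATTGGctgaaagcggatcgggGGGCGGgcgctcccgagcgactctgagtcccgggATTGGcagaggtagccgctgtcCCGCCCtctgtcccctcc
Cyp51, chr5:4104648-4104947, minus strand: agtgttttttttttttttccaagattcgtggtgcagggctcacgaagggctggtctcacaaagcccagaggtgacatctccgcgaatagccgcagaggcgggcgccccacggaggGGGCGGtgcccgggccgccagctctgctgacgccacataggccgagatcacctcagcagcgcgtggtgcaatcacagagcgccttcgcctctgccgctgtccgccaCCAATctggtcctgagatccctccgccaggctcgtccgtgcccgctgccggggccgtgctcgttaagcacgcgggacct
Hsd17b7, chr1:169969156-169969455, minus strand: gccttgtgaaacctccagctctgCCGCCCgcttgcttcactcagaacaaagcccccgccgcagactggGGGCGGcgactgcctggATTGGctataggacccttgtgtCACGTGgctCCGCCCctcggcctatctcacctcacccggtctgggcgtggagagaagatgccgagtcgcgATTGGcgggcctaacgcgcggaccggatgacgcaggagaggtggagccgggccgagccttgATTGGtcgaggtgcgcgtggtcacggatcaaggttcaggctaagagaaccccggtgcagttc
Tm7sf2, chr19:6067801-6068100, minus strand: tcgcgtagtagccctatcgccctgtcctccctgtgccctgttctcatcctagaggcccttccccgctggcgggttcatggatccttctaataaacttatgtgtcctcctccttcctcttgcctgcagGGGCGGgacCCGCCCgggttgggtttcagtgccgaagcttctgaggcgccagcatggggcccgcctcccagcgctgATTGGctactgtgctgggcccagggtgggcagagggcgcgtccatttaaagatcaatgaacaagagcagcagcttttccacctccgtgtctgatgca
Insig1, chr5:28071162-28071461, plus strand: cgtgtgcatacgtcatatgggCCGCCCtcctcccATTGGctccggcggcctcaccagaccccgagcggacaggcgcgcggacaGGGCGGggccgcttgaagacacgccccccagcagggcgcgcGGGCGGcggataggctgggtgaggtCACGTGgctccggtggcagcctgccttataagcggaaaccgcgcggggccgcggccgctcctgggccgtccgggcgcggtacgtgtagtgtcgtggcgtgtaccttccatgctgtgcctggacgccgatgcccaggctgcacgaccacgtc
Fasn, chr11:120824498-120824797, minus strand: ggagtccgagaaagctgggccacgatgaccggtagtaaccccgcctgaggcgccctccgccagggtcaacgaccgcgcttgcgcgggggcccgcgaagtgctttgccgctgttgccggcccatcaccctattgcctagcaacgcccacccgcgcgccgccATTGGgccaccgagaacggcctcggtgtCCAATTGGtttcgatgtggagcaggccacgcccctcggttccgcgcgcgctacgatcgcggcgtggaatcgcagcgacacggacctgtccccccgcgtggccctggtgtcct

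In the Hmgcs1 promoter the sterol regulatory element letters began 137 bases before the start, between matches to CCAAT that began at 176 and 45 bases before it. It was the only start of the 36 with this 9-letter motif, which 1.24% of all 32851 RefSeq promoters of this length held. A match to CCAAT was found in 23 of the 36 starts (63.9%) and in 37.4% of all promoters. By list, 14 of the 18 starts of sterol enzymes held it, 5 of the 10 of the regulators and 4 of the 8 of the fatty acid branch. Of its branch Fasn held the most matches at a start, and 2 of its 3 overlap each other. A match to GGGCGG was found in 26 of the 36 starts and in 35.7% of all promoters, and a match to CACGTG in 7 of the 36 and in 7.15%. By list, GGGCGG was found in 15 of the 18 starts of sterol enzymes, 8 of the 10 of the regulators and 3 of the 8 (37.5%) of the fatty acid branch. Some starts of the same gene overlap, and the same CACGTG of Scap is counted at 2 starts. Counted by gene, CCAAT was found in 22 of 27 genes and 41.1% of all genes. GGGCGG was found in 22 of 27 and 38.2%, and CACGTG in 6 of 27 and 8.09%. Tm7sf2, not called, held a CCAAT match and 2 GGGCGG matches, whereas Acat2, which rose, held no CCAAT match. Elovl6 and Acaca, which also rose, held no match to any of the 4 motifs. The start used for Acaca lies inside the annotated gene, not at its first base. These are matches of letters, not measured binding, and the shares were not tested. Both the genes and the motifs are known from SREBP targets. Shares above those of all promoters can thus follow from that choice and say nothing about these samples.

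**Figure D2:**
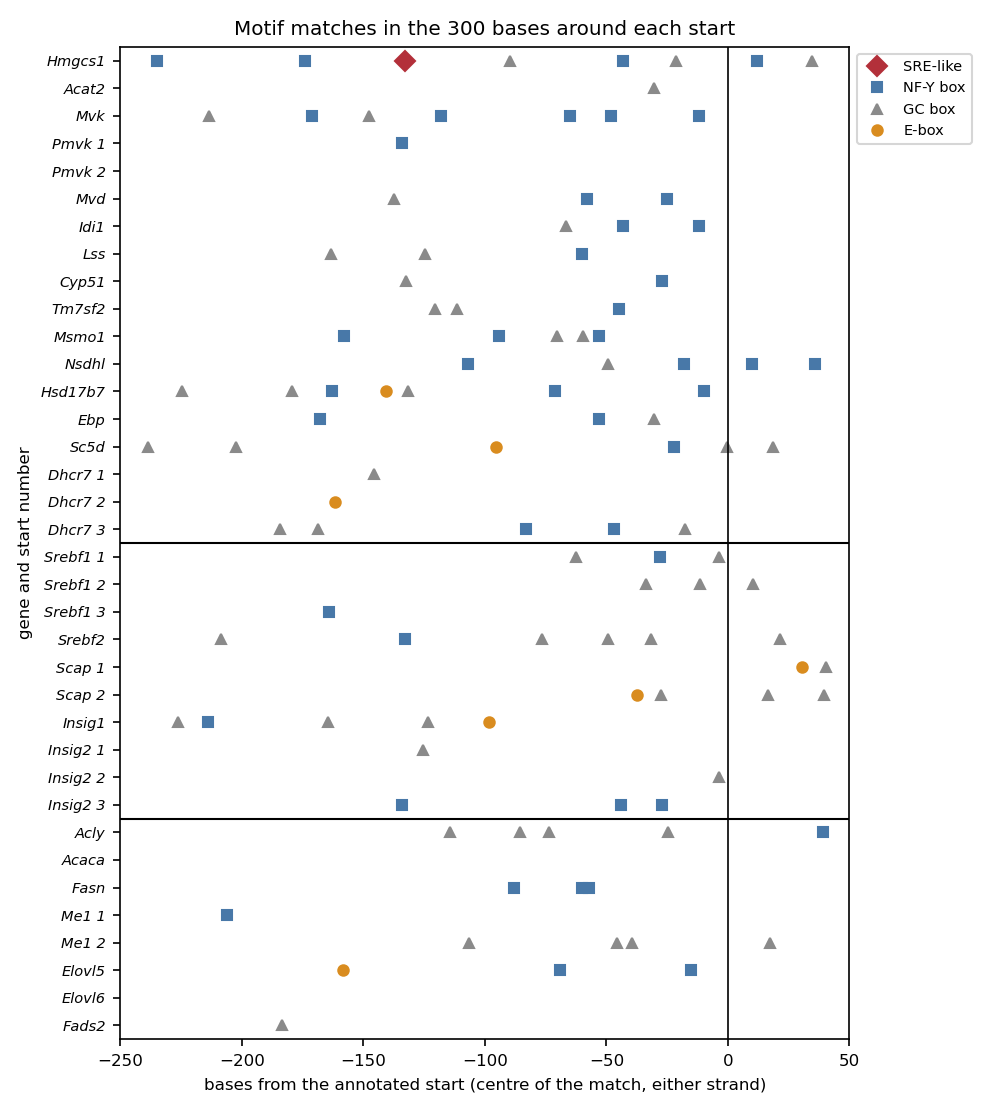
Place of each motif match (symbols) in bases from the annotated start, for the 36 starts of 27 genes (rows, sorted by list). The only match to the sterol regulatory element lies in Hmgcs1, and squares, the matches to CCAAT, are found at most starts of sterol enzymes.

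Acat2 and Hmgcs1 make acetoacetyl-CoA and HMG-CoA, the entry to the pathway. Hmgcs1 lies on chromosome 13 of GRCm38 from 119690379 to 119708260 on the plus strand, and per length it was the most abundant gene of the sterol branch in injured FAPs, at 1212 per kb of annotated exon. Its normalized values were 1872, 3038 and 3112 in ASCs, 1051 and 1098 in FAPs and 5673, 5430.3 and 5601 in injured FAPs, against 884 in the CD31+CD45+ library. No injured FAP library overlapped with either other group, and ASC 1 was the lowest of the ASCs. The mean in injured FAPs was 5.18-fold that in FAPs (log2 fold change 2.37, standard error 0.19, limma adjusted p = 3.12e-06) and 2.08-fold that in ASCs (log2 fold change 1.09, standard error 0.17, limma adjusted p = 0.000214). ASCs in turn exceeded FAPs (log2 fold change 1.28, standard error 0.19, limma adjusted p = 0.00022). Acat2 stood at 220.0, 121 and 183 in ASCs, 82.7 and 94.1 in FAPs and 595, 584 and 504 in injured FAPs, and was called higher in each comparison. Its rise in ASCs over FAPs (log2 fold change 0.94) was not called with equal totals (0.37). Of its stretches of 100 bases 28.9% also occur in Acat3 or Tcp1, and Tcp1 itself had means of 3597, 1496 and 6311 in ASCs, FAPs and injured FAPs, so reads of Acat2 are uncertain.

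The mevalonate kinase Mvk, the phosphomevalonate kinase Pmvk and the decarboxylase Mvd turn mevalonate into isopentenyl diphosphate. Mvk was at 182, 378 and 335 in ASCs, 302 and 344 in FAPs and 983, 838 and 757 in injured FAPs. Pmvk was at 136, 164 and 166 in ASCs, 93.2 and 129 in FAPs and 319, 298 and 295 in injured FAPs. Mvd was at 124, 190.3 and 161 in ASCs, 147 and 216 in FAPs and 803, 772 and 648 in injured FAPs. Each of the 3 genes was higher in every injured FAP library than in any ASC or FAP library, whereas ASCs and FAPs lay close together. The log2 fold changes of injured FAPs against FAPs were 1.40 (standard error 0.27) for Mvk, 1.46 (0.18) for Pmvk and 2.04 (0.22) for Mvd. Mvk and Mvd did not pass in ASCs against FAPs (limma adjusted p = 0.582 and 0.459), nor did Pmvk by its fold (0.49), although it passed without FAP 2 (0.72) or ASC 1 (0.59) and with quantile normalization (0.91).

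Idi1, the isomerase of isopentenyl diphosphate, had few reads outside injured FAPs. Its reads were 6, 4 and 4 in ASCs, 3 and 2 in FAPs, 32, 35 and 32 in injured FAPs and 5 in the CD31+CD45+ library. The injured FAP libraries were the highest, and since both FAP libraries were at or under 3 reads no fold is given. Idi1 is counted among the 18 and the 16 genes called higher in injured FAPs, and 21.9% of its 100-base stretches also occur in other genes.

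Fdps and Fdft1 carry the isoprenoids to squalene. Fdps, the farnesyl diphosphate synthase, was at 234, 556 and 476 in ASCs, 318 and 321 in FAPs and 2710.1, 2426 and 2195 in injured FAPs, a rise of 7.66-fold in the mean against FAPs (log2 fold change 2.93, standard error 0.29, limma adjusted p = 1.3e-05). Against ASCs the log2 fold change was 2.62 (limma adjusted p = 9.81e-06). ASCs and FAPs overlapped, and ASC 1, at 234, was lower than both FAP libraries. Without ASC 1 the difference of ASCs from FAPs was called (log2 fold change 0.69). Annotated exons of Fdps overlap the gene Gm43738 on the same strand over 26.7% of their length, and 21.4% of its 100-base stretches occur in other genes, so how its reads were assigned is uncertain. Exons of Hmgcs1 (12.1%, other strand), Tm7sf2 (12.1%, with Vps51 on the same strand) and Scap (13.2%) also overlap another gene. Fdft1, the squalene synthase, was at 402, 676 and 549.9 in ASCs, 420.3 and 485 in FAPs and 2300.5, 2188 and 2035 in injured FAPs, with a log2 fold change of 2.26 against FAPs and 2.03 against ASCs. Exons of Fdft1 overlap those of Ctsb on the other strand over 18.3% of their length. Ctsb had means of 45534 in ASCs, 22225 in FAPs and 24166 in injured FAPs. Reads of both genes cannot be told apart without strand, and the part of Ctsb in the values of Fdft1 was not tested.

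Sqle, the squalene epoxidase and a rate-limiting step, lies on chromosome 15 from 59315077 to 59331192 on the plus strand. It was at 1149, 1338 and 1439.9 in ASCs, 281 and 366 in FAPs, 2445, 2330.4 and 2263 in injured FAPs and 139.7 in the CD31+CD45+ library. The groups were fully separated, with FAPs lowest and injured FAPs highest. Injured FAPs exceeded FAPs (log2 fold change 2.87, standard error 0.14, limma adjusted p = 2.91e-07), as did ASCs (log2 fold change 2.02, standard error 0.14, limma adjusted p = 1.29e-06), and injured FAPs exceeded ASCs by 0.85. Lss, the lanosterol synthase that closes the ring system, had another order. It was at 119.9, 174 and 163 in ASCs, 193 and 201.3 in FAPs and 1029, 924 and 887 in injured FAPs, so that ASCs were lowest. Injured FAPs exceeded FAPs (log2 fold change 2.25, standard error 0.17, limma adjusted p = 2.35e-06) and ASCs (log2 fold change 2.64, standard error 0.15, limma adjusted p = 2.5e-07), and ASCs against FAPs did not pass (limma adjusted p = 0.0717), though with equal totals Lss was called lower in ASCs (−0.95).

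Cyp51, the demethylase of lanosterol, opens the series of steps from lanosterol to cholesterol. It was at 1589, 1946 and 1969.7 in ASCs, 569.6 and 625 in FAPs, 4111, 3939 and 4190.4 in injured FAPs and 264 in the CD31+CD45+ library. As for Sqle, the groups did not overlap. The mean in injured FAPs was 6.83-fold that in FAPs (log2 fold change 2.77, standard error 0.11, limma adjusted p = 1.88e-07) and 2.22-fold that in ASCs (log2 fold change 1.16, standard error 0.10, limma adjusted p = 4.2e-06), and ASCs exceeded FAPs by 1.61. For Hsd17b7, a ketoreductase of the same steps, ASCs lay nearer to injured FAPs than to FAPs. It was at 893, 686 and 842 in ASCs, 189 and 218 in FAPs and 1066, 1026 and 1095 in injured FAPs. Both ASCs (log2 fold change 1.98, standard error 0.13, limma adjusted p = 1.3e-06) and injured FAPs (log2 fold change 2.38, standard error 0.13, limma adjusted p = 5.55e-07) exceeded FAPs, whereas injured FAPs against ASCs did not pass the fold threshold (0.40), except with equal totals.

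Msmo1, the methylsterol monooxygenase, was at 393, 767 and 672 in ASCs, 437 and 433 in FAPs and 2206, 1901 and 2202 in injured FAPs. It rose in injured FAPs against FAPs (log2 fold change 2.27, standard error 0.23, limma adjusted p = 1.55e-05), and ASCs overlapped with FAPs, with ASC 1 the lowest of the 8 compared libraries. Without ASC 1, ASCs were called higher than FAPs for Msmo1 (log2 fold change 0.72). Nsdhl, a sterol dehydrogenase, was at 327, 401 and 463 in ASCs, 448 and 397 in FAPs and 1229, 1114 and 988 in injured FAPs, with ASCs and FAPs overlapping and injured FAPs above both (log2 fold change 1.39 against FAPs and 1.49 against ASCs). Sc5d, a sterol desaturase near the end of the pathway, was at 926, 844 and 1018 in ASCs, 575 and 576 in FAPs and 1508, 1601 and 1448 in injured FAPs. It was called higher in ASCs than in FAPs (0.69) and higher again in injured FAPs (1.40 against FAPs). The call in ASCs was lost with quantile normalization (0.57) and with equal totals (0.12).

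Dhcr7, the reductase of the last step, was the only gene of the 34 called lower in ASCs than in FAPs. It was at 177, 223 and 217 in ASCs, 397 and 424 in FAPs and 909, 904 and 731 in injured FAPs, with no overlap of the groups. The mean in ASCs was 0.501-fold that in FAPs (limma standard error 0.15 on the log2 scale, adjusted p = 0.000264), and that in injured FAPs was higher (log2 fold change 1.04, standard error 0.15, limma adjusted p = 0.000169). Tm7sf2, a sterol reductase, and Ebp, a sterol isomerase, were the enzymes not called in any comparison. Tm7sf2 was at 63.2, 86.1 and 86.6 in ASCs, 108 and 124 in FAPs and 120.0, 92.2 and 98.4 in injured FAPs, and Ebp at 1237, 916 and 964 in ASCs, 708 and 698 in FAPs and 1008, 1012 and 1001 in injured FAPs. For Ebp the adjusted p was under the threshold against FAPs but the log2 fold change was 0.55 in ASCs and 0.52 in injured FAPs. Ebp was called higher in ASCs without ASC 2 (0.63) or ASC 3 (0.60), and with equal totals it was called higher in injured FAPs than in FAPs (0.65) and in ASCs (0.67). Tm7sf2 was called lower in ASCs than in FAPs by edgeR (−0.61), and without ASC 2 (−0.64) or ASC 3 (−0.65), and with equal totals it was called lower there (−1.13) and higher in injured FAPs than in ASCs (1.09).

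**Figure D3:**
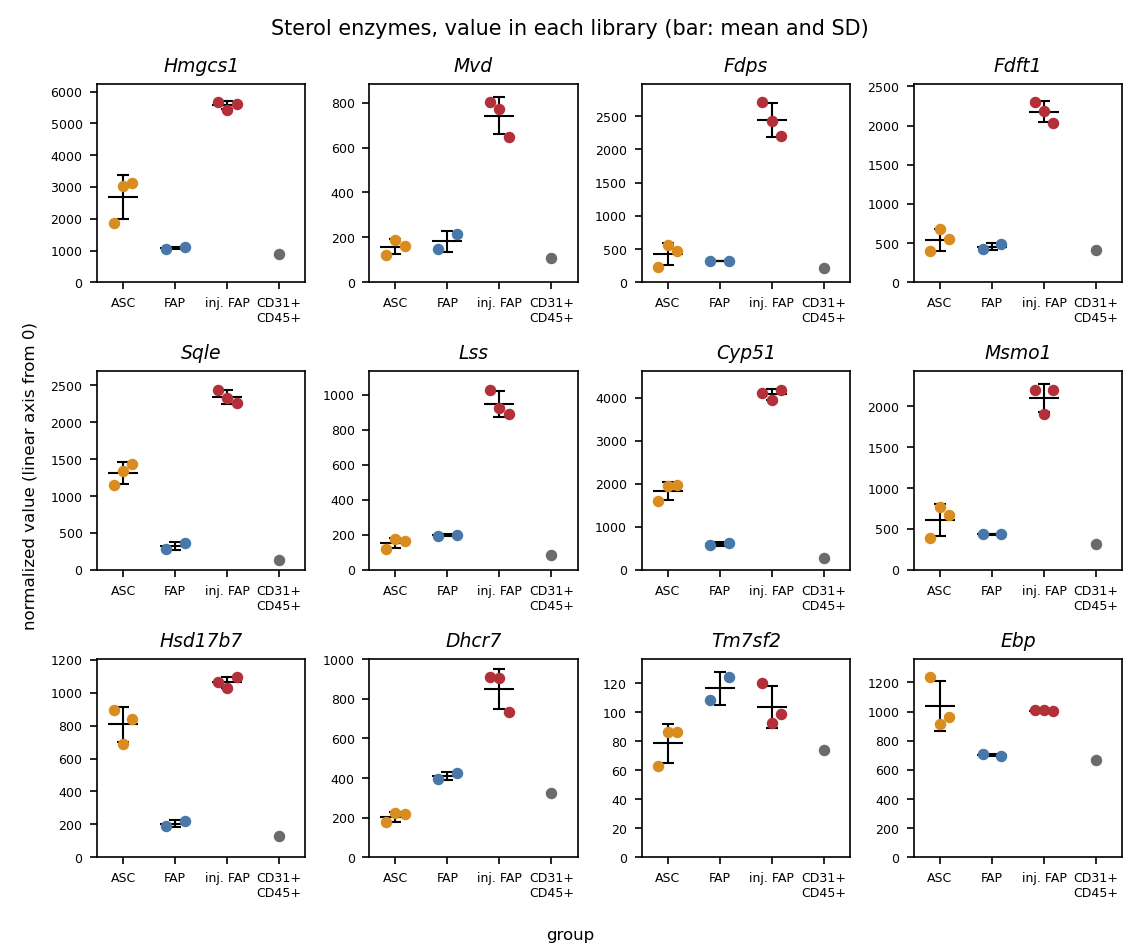
Normalized value of 12 sterol enzymes (panels, linear axes from 0) in each library, by group, as points with the mean and SD where a group has replicates. The 3 injured FAP points lie above all others in every panel but Tm7sf2 and Ebp, and ASCs lie above FAPs for Hmgcs1, Sqle, Cyp51, Hsd17b7 and Ebp but below them for Lss, Dhcr7 and Tm7sf2.

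Of the 6 genes of regulation and transport, Insig1 and Stard4 were called and 4 were not. Srebf2, whose product drives mainly the sterol enzymes, was at 5287, 5451 and 5902 in ASCs, 3959 and 3911 in FAPs and 6318, 5591 and 5554 in injured FAPs. FAPs were lowest with no overlap, but the log2 fold change in injured FAPs (0.56, standard error 0.10) was just short of the threshold. It was passed with edgeR (0.61), DESeq2 (0.59) and equal totals (0.69) and without injured FAP 2 (0.59) or 3 (0.60). Srebf1, whose product drives mainly the fatty acid branch, was at 2292, 3278 and 3158 in ASCs, 2947 and 3221 in FAPs and 2565, 2442 and 2297 in injured FAPs and passed in no comparison. Scap, the escort of both factors, was at 1679.6, 1722 and 1845 in ASCs, 1954 and 1931 in FAPs and 1922, 1887 and 1814 in injured FAPs, a span of less than 300 between the lowest and highest library.

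Insig1 and Insig2 encode the proteins that retain Scap. Insig1 was at 3446, 3559.8 and 4475 in ASCs, 1372 and 1366 in FAPs and 3427, 3015 and 3557 in injured FAPs, and it was the most abundant sterol branch gene per length in ASCs, at 1237 per kb. FAPs were lowest, and ASCs and injured FAPs overlapped. It was higher than in FAPs in ASCs (log2 fold change 1.47, standard error 0.13, limma adjusted p = 6.24e-06) and in injured FAPs (log2 fold change 1.28, standard error 0.13, limma adjusted p = 1.32e-05). Insig2 was not called in any comparison, at 576, 514 and 601 in ASCs, 497 and 495 in FAPs and 398, 369 and 445 in injured FAPs. Stard4, a carrier of sterols in the cytosol, was at 245, 461 and 433 in ASCs, 295 and 329 in FAPs and 1048, 1009.8 and 1156 in injured FAPs, and was higher in injured FAPs than in FAPs (log2 fold change 1.78, standard error 0.23, limma adjusted p = 8.49e-05) and than in ASCs (1.55).

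**Figure D4:**
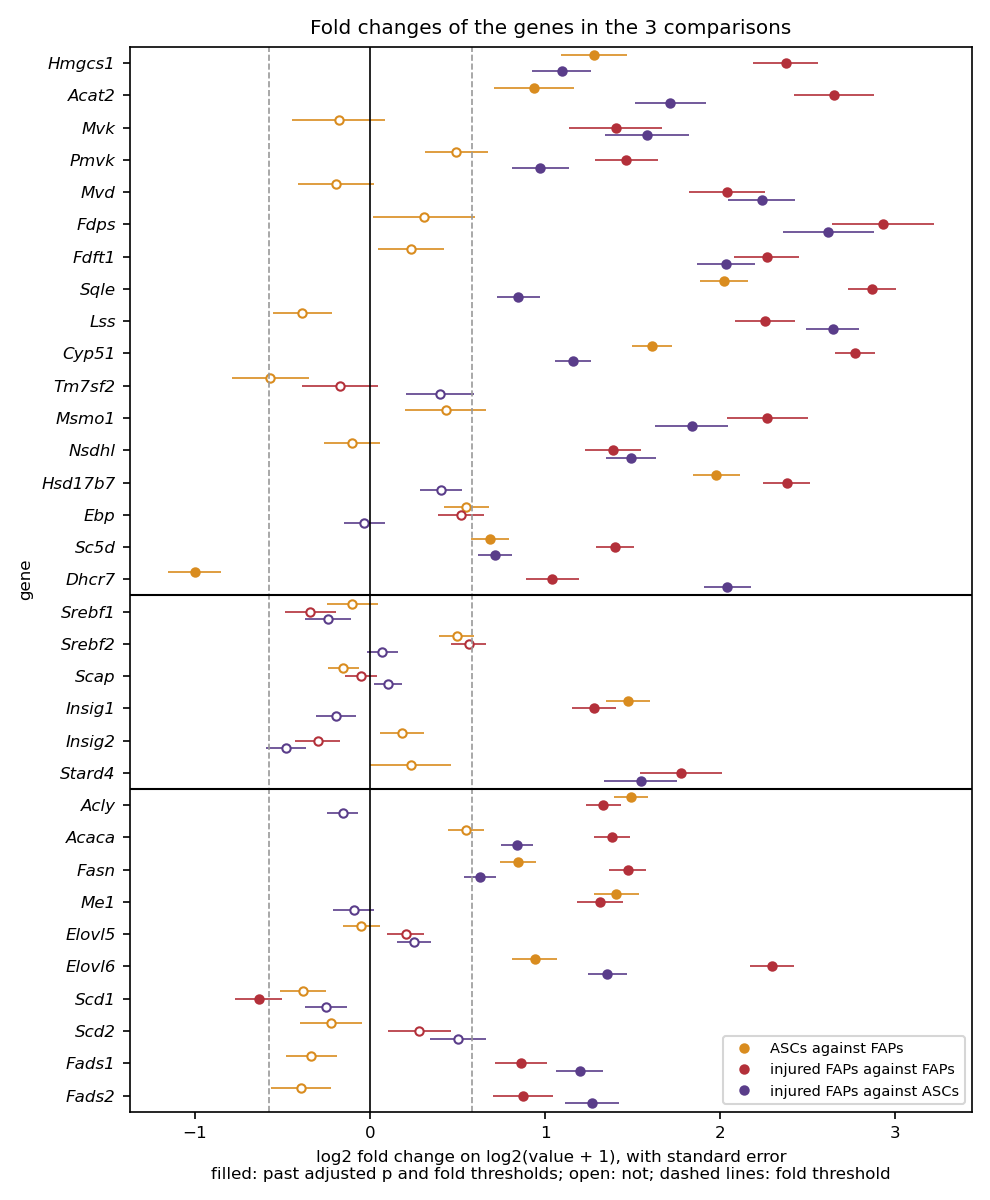
Log2 fold change (x axis, with standard error) of 33 genes (rows) in the 3 comparisons (colours), by limma. Filled points passed the adjusted p and fold thresholds, and the dashed lines mark the fold threshold of 0.58. The red points of injured FAPs against FAPs reach 2.93 for Fdps, whereas those of Srebf1, Srebf2, Scap and Insig2 are open and lie between −0.34 and 0.56.

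In the fatty acid branch, Acly and Me1 supply acetyl-CoA and NADPH. Acly, the ATP citrate lyase, was at 8237, 9249 and 9632 in ASCs, 3165 and 3256 in FAPs and 8242, 7963 and 8059.6 in injured FAPs. It was higher than in FAPs in ASCs (log2 fold change 1.49, standard error 0.10, limma adjusted p = 1.04e-06) and in injured FAPs (log2 fold change 1.33, standard error 0.10, limma adjusted p = 1.98e-06), and the latter groups overlapped. Me1, the cytosolic malic enzyme, was at 1593, 1163 and 1426 in ASCs, 526 and 516 in FAPs and 1273, 1334 and 1281 in injured FAPs, again with FAPs lowest (log2 fold change 1.41 in ASCs and 1.31 in injured FAPs). Of its 100-base stretches 14.6% also occur in other genes. Of the fatty acid branch only these 2 genes were called higher in ASCs than in FAPs under each scaling tried.

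Acaca and Fasn make malonyl-CoA and palmitate. Acaca, the acetyl-CoA carboxylase, was at 1550.5, 1582 and 1843 in ASCs, 1120.2 and 1144 in FAPs and 3059, 2891 and 2917 in injured FAPs. Fasn, the fatty acid synthase, lies on chromosome 11 from 120805846 to 120824547 on the minus strand and was at 8179.5, 8438 and 9135 in ASCs, 4627 and 4929.7 in FAPs and 14239, 13424 and 12165 in injured FAPs. For both genes injured FAPs were highest and FAPs lowest, with no overlap between groups. Against FAPs, injured FAPs had a log2 fold change of 1.38 for Acaca (standard error 0.10, limma adjusted p = 2.05e-06) and 1.47 for Fasn (standard error 0.10, limma adjusted p = 1.73e-06). In ASCs the values were 0.55, which did not pass the fold threshold except without ASC 1 (0.59), and 0.84. For Fasn the call in ASCs was lost with quantile normalization (0.23) and equal totals (0.28). Its call in injured FAPs against ASCs (0.63) was lost with a common 75th percentile (0.54) and without injured FAP 1 (0.58). Of the 100-base stretches of Acaca 23.7% also occur in other genes, so its reads are uncertain.

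Elovl6, which lengthens palmitate, had the largest rise of the branch. It was at 649, 759 and 844 in ASCs, 411 and 368 in FAPs, 2008, 1899.5 and 1831 in injured FAPs and 141 in the CD31+CD45+ library, with the groups fully separated. The mean in injured FAPs was 4.91-fold that in FAPs (log2 fold change 2.29, standard error 0.13, limma adjusted p = 4.9e-07) and 2.55-fold that in ASCs (log2 fold change 1.36, standard error 0.11, limma adjusted p = 2.87e-06). Its difference between ASCs and FAPs (0.94) was not called with equal totals (0.37). Elovl5, which lengthens polyunsaturated fatty acids, was at 2253, 1973 and 2309 in ASCs, 2123 and 2381 in FAPs and 2621, 2440.4 and 2709 in injured FAPs and was not called in any comparison.

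Scd1 and Scd2 place the double bond of monounsaturated fatty acids, and Fads1 and Fads2 those of polyunsaturated ones. Scd1 was at 6709, 5345 and 7328 in ASCs, 8693 and 8031 in FAPs and 5728, 5132 and 5292 in injured FAPs, and was the only gene of the 34 called lower in injured FAPs than in FAPs (log2 fold change −0.64, standard error 0.13, limma adjusted p = 0.00184). This call was lost without FAP 1 (−0.58) and with equal totals (−0.50). Scd2 was at 3968, 5114 and 6648 in ASCs, 5726 and 6256 in FAPs and 7374, 7661 and 6814 in injured FAPs and was not called. In injured FAPs against ASCs (0.50) it was called with quantile normalization (0.91), without ASC 3 (0.69) and with equal totals (1.20). The paralogs share 2.58% of the 100-base stretches of Scd1 with each other or with Scd3 and Scd4. Fads1 was at 2562, 2300.3 and 3249 in ASCs, 3038 and 3747 in FAPs and 6447, 6116 and 5855 in injured FAPs, and Fads2 at 1432, 1206 and 1902 in ASCs, 1802 and 2123 in FAPs and 3872, 3587 and 3307 in injured FAPs. Both desaturases were highest in each injured FAP library. The log2 fold changes against FAPs were 0.86 and 0.87 (limma adjusted p = 0.000523 and 0.00124), and against ASCs 1.20 and 1.27. In ASCs against FAPs neither passed, with log2 fold changes of −0.33 and −0.40, although quantile normalization called Scd1, Scd2, Fads1 and Fads2 lower in ASCs.

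**Figure D5:**
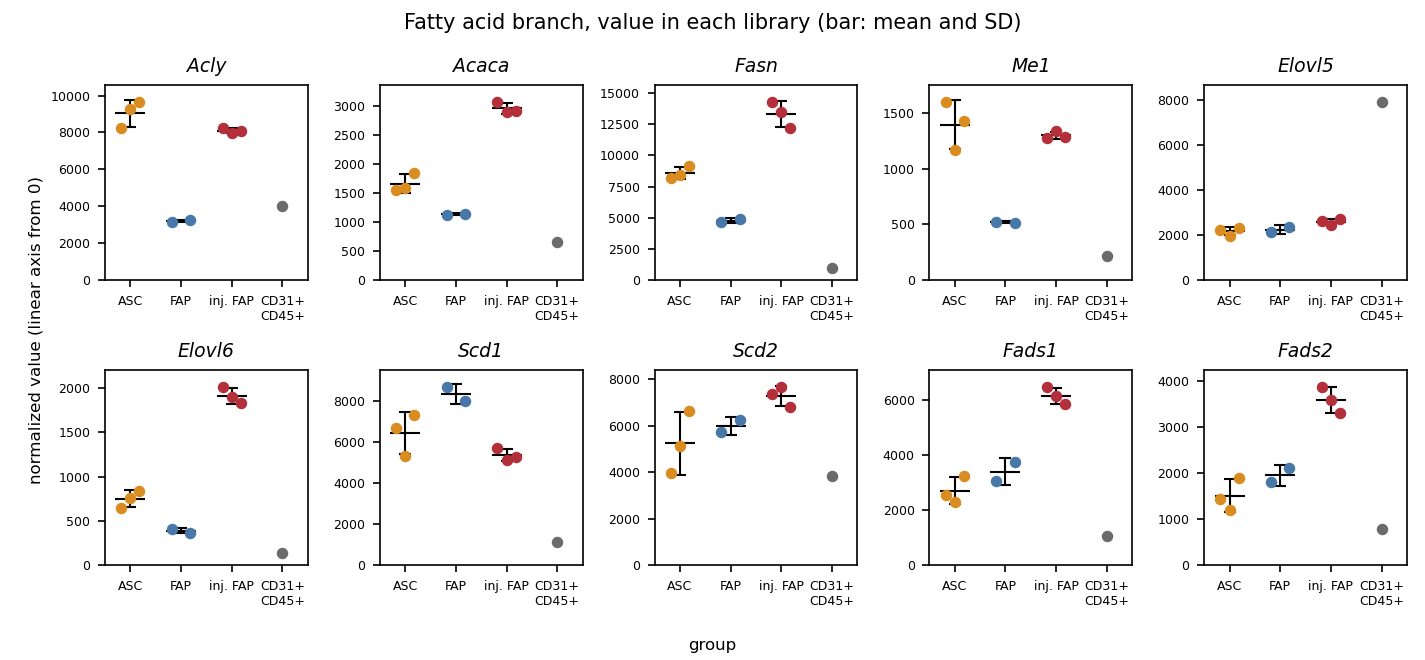
Normalized value of the 10 fatty acid branch genes (panels, linear axes from 0) in each library, by group, with the mean and SD where a group has replicates. Injured FAPs lie above FAPs in every panel but Scd1, where they lie below, and the CD31+CD45+ library is highest for Elovl5.

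In the CD31+CD45+ library, set against injured FAPs without a test, 20 of the 24 sterol branch genes were lower by more than 0.58 on the log2 scale and 0 were higher, where 34.6% of all genes were lower and 32.1% higher by this fold. The median difference was −1.66, beside −0.04 over all genes. Idi1 (−1.58), which passed the filter only through its level in injured FAPs, is counted among the 20 and in this median. Of the fatty acid branch 9 of 10 genes were lower and Elovl5 was higher, with a median of −2.21. Sqle was 4.06 lower on this scale, Cyp51 3.95 lower and Fasn 3.70 lower. This library held fewer reads than any other, and with no replicate its spread is unknown.

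Other genes of these pathways were counted from 5 further lists, to be read beside the shares of all genes called (24.9% higher and 27.7% lower with injury within FAPs, 23.4% and 23.8% for ASCs set against FAPs, 25.0% and 25.8% for injured FAPs set against ASCs). Of 21 tested genes of sterol synthesis and SREBP processing outside the 34, 7 were higher and 1 lower in injured FAPs than in FAPs, 6 higher and 1 lower in ASCs than in FAPs, and 6 higher and 3 lower in injured FAPs than in ASCs. Mbtps1, the protease that first cuts the SREBPs, fell by 0.60 in injured FAPs against FAPs. Por and Cyb5a, electron donors of several of these enzymes, were higher in ASCs than in FAPs (2.03 and 0.93) and lower in injured FAPs than in ASCs (−1.52 and −0.74). Fntb was lower in ASCs than in FAPs (−0.69), and Nus1 was higher in injured FAPs than in ASCs (0.66).

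Of 14 genes of sterol uptake and lysosomal release, 2 were higher and 2 lower in injured FAPs than in FAPs (all genes 24.9% and 27.7%), 4 higher and 0 lower in ASCs than in FAPs, and 2 higher and 6 lower in injured FAPs than in ASCs. Lrp8, a receptor of the LDL receptor family, was at 31.6, 24.9 and 35.1 in ASCs, 24.7 and 34.8 in FAPs and 966, 981 and 938 in injured FAPs (log2 fold change 4.99, standard error 0.21, limma adjusted p = 2.05e-07). Vldlr, of the same family, moved the other way, at 3251, 2901 and 3029 in ASCs, 1069.8 and 1069.7 in FAPs and 364, 353 and 387 in injured FAPs (log2 fold change −1.54 against FAPs). Scarb1, an HDL receptor, rose by 0.94 against FAPs and 1.51 against ASCs. Gramd1b was lower in injured FAPs than in FAPs (−1.61). Npc1 and Npc2, which release sterol from lysosomes, were higher in ASCs than in FAPs (0.82 and 1.69). Npc2 (−1.12) and Lrp1 (−0.76) were lower in injured FAPs than in ASCs.

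All 14 genes of sterol efflux, LXR and oxysterols were called in injured FAPs against FAPs, 5 higher and 9 lower (all genes 24.9% and 27.7%). In ASCs against FAPs 6 were higher and 2 lower, and in injured FAPs against ASCs 3 were higher and 9 lower. Abca1, the cholesterol exporter, was at 5313, 5832 and 6180.2 in ASCs, 2185 and 2056 in FAPs and 709, 739 and 637 in injured FAPs. Apoe, which carries the exported lipid, was at 12216, 9157 and 8379.6 in ASCs, 3937 and 3225 in FAPs and 758, 1032 and 848 in injured FAPs. Injured FAPs were thus lowest and ASCs highest for both, with log2 fold changes against FAPs of −1.61 and −2.03 in injured FAPs and 1.44 and 1.46 in ASCs. Lpcat3 (0.77) and Soat1 (1.04), the latter an enzyme that esterifies cholesterol, rose in injured FAPs against FAPs. Arl4c (2.94) and Cyp7b1 (1.77) were higher in injured FAPs than in ASCs. Abcg4 (−1.05) and Arl4c (−1.07, with overlapping groups) were lower in ASCs than in FAPs.

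Of 27 tested genes of fatty acid and glycerolipid synthesis outside the 34, 6 were higher and 5 lower in injured FAPs than in FAPs (all genes 24.9% and 27.7%), 10 higher and 6 lower in ASCs than in FAPs, and 6 higher and 6 lower in injured FAPs than in ASCs. Acsl4, which activates polyunsaturated fatty acids, was at 2178, 1843 and 1879 in ASCs, 418 and 393 in FAPs and 2324, 2727 and 2844 in injured FAPs (log2 fold change 2.69 against FAPs). Hsd17b12, of the elongation cycle, rose by 1.77 against FAPs and 0.72 against ASCs. Acacb, the mitochondrial acetyl-CoA carboxylase, was at 142, 135 and 158 in ASCs, 637 and 779 in FAPs and 158, 146 and 119.8 in injured FAPs, thus lower in injured FAPs (−2.32), and Lpin1 was also lower (−0.91). Against FAPs, ASCs were higher for Acsl4 (2.27) and Acsl5 (0.90) and lower for Mid1ip1 (−0.96) and Agpat2 (−0.92). Against ASCs, injured FAPs were higher for Mid1ip1 (1.06) and lower for Dgat1 (−1.47) and Dgat2 (−0.76), the enzymes of the last step of triglyceride synthesis.

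Of 18 tested genes of fatty acid oxidation, 4 were higher and 3 lower in injured FAPs than in FAPs (all genes 24.9% and 27.7%), 6 higher and 2 lower in ASCs than in FAPs, and 3 higher and 4 lower in injured FAPs than in ASCs. In injured FAPs Acadl (0.94) and Etfa (0.81) were higher than in FAPs, and Pdk4 (−2.25) and Ppara (−1.10) were lower. In ASCs Etfa (1.09) was higher than in FAPs and Acads (−0.65) was lower. Ppargc1a, a coactivator of oxidative genes, was at 5.27, 3.40 and 6.28 in ASCs and 21.9 and 59.3 in FAPs, the former near the value of 3 reads. Etfdh (0.63) and Cpt2 (1.03) were higher in injured FAPs than in ASCs, and Acaa2 (−0.82) was lower.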

How the data were processed

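Values came from the table of normalized values, in which the authors deposited the signal of each gene as reads divided by 1 factor per library. The authors aligned reads to mm10 with HISAT2 and assigned them to genes with Subread, and tested expression with DESeq2; how the table was scaled, the strand setting and the handling of reads with several matches are not given in the sources used here. Whole reads were recovered here from the values, 100% of which were whole multiples of 1 step per library within 0.01. Levels were compared with limma 3.58.1 in R 4.3.3, with a trend in the prior variance, 3 group means and 5 residual degrees of freedom, and Benjamini-Hochberg adjustment over 13601 genes. The fit shares its spread between groups, and FAPs have 2 libraries. edgeR 4.0.16 and DESeq2 1.42.0 on the recovered reads called 6450 and 6412 genes between ASCs and FAPs, 7303 and 7227 between FAPs with and without injury, and 7000 and 6865 between injured FAPs and ASCs.

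The members and lists were chosen with earlier results of these data known. Named were all 34 members and, from 5 other pathway lists, the 2 called genes with the highest mean in each direction of each comparison. Some genes under that rule are not reported here. Lists of adipocyte, endothelial, leukocyte, muscle fibre, satellite, Schwann, mural, identity and immediate early genes were summed per library. The identity list of 11 stromal genes, among them Pdgfra, summed to 3151400, 2866200 and 3313600 in ASCs, 1594600 and 1729900 in FAPs, 701750, 759640 and 683730 in injured FAPs and 69547 in the CD31+CD45+ library. The printed promoters were chosen after the values were seen. Gene coordinates, exon overlap and shared stretches of 100 bases came from GENCODE M21 (GRCm38), and promoters from RefSeq (GRCm38.p6). Promoters of Stard4, Fdps, Sqle, Fads1, Fdft1, Scd1 and Scd2 were not analysed here.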

Additional observations from a re-analysis of the deposited data

Results flagged for a closer look

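The CD31+CD45+ library, which entered no test, had the highest value of all 9 libraries for 2 of the 34 genes. Stard4 was at 1257.1 there, where the highest of the other 8 libraries was 1156, a margin of only 1.09-fold. Elovl5 was at 7903.6, where the highest of the other 8 was 2709. The same library had the lowest value of the 9 for 13 of 24 sterol branch genes and 8 of 10 fatty acid branch genes. Against injured FAPs, 32.1% of all genes were higher there by the fold threshold alone, and of the 34 genes only Elovl5 was. For how many of all genes this library was the highest of the 9 was not counted, so 2 of 34 cannot be called unusual. The library has no replicate, and the cause was not tested.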

How the results depend on the processing

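Alternatives were other pseudocounts, filters and scalings, unadjusted p, the 2 groups alone, edgeR, DESeq2, each library left out and a replicate block. Of 2079 refitted fold changes, 2021 kept their side of the threshold, 10 fell short of it, 46 passed it newly and 2 reversed. Of those that stayed, 37 changed sign while past the threshold in neither fit. Many could not move, since unadjusted p, other filters and the 2 groups alone leave each fold change as it was. The same holds where the library left out was in neither group compared. Equal total reads, and the fit without ASC 1 and injured FAP 2, were added after seeing the data; without equal totals, 1949 of 1980 stayed and 0 reversed.

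With 1 library left out, ASCs against FAPs had 7 to 10 sterol branch genes higher and 1 to 2 lower, and 4 to 5 fatty acid branch genes higher and 0 lower. Injured FAPs against FAPs had 18 to 19 and 7 higher, and 0 and 0 to 1 lower. Injured FAPs against ASCs had 16 and 4 to 6 higher, and 0 lower. Where a group kept 1 library, that library was assumed to vary like the others. In ASCs against FAPs edgeR called 2 sterol branch genes lower, and quantile normalization 4 fatty acid branch genes lower.

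With equal totals, ASCs against FAPs had 8 sterol branch genes lower, and 2 fatty acid branch genes higher and 5 lower. Of all 13601 genes 1594 were higher and 6316 lower there. Injured FAPs against FAPs had 20 sterol branch genes higher and 0 fatty acid branch genes lower, beside 3964 of all genes higher and 3250 lower. Injured FAPs against ASCs had 21 and 8 higher, beside 7377 of all genes higher and 1692 lower. In the latter the log2 fold change of Ebp was 0.67 instead of −0.03 and that of Me1 0.60 instead of −0.09. The cause was not tested beyond the shift of all genes.

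A replicate block left the counts at 7 higher and 1 lower, 18 and 0, and 16 and 0 for the sterol branch, and at 4 and 0, 7 and 1, and 5 and 0 for the fatty acid branch. Deviations of libraries with the same number correlated at −0.054 to 0.045, and gave no sign that the numbers pair samples. Idi1 had 2 to 6 reads in ASCs and FAPs, and a filter on a mean of 50 left it out, with 17 sterol branch genes higher in injured FAPs against FAPs and 15 against ASCs.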
